A study of Mus musculus with 9 samples.

Results

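The mitochondrial ribosomal protein genes are 78 nuclear genes whose products, Mrps36 apart, build the ribosome inside mitochondria. They were chosen by symbol alone, as every gene named Mrpl or Mrps followed by a digit, with 1 RefSeq row per gene (the row of the highest total), and they are 78 of the 25160 genes in the count table. The set holds 49 Mrpl and 29 Mrps symbols, and all 78 passed the filter on low counts and were tested. Bulk RNA sequencing covered 9 libraries of mouse splenic CD4+ T cells of the C57BL/6 strain, sorted as naive cells and cultured on plates coated with a CD3e antibody (1 µg/ml) that engages the T cell receptor complex. Wild-type cells also received 19 µg/ml of an isotype control antibody (WT isotype, 3 libraries) or 19 µg/ml of an antibody against CD40L, the ligand of CD40 on activated helper T cells (WT anti-CD40L, 3 libraries). Cells labelled KO, from mice that lack CD40L in T cells by a Cre-driven deletion, received the isotype antibody (KO isotype, 3 libraries). All 3 groups thus shared the CD3e antibody. The sources used here do not give the Cre driver, the animals' age or the culture time. No label says whether replicates came from separate animals, so the p-values reflect only differences among these 9 libraries, which can be technical.

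Mitochondria keep a small genome that encodes core subunits of the respiratory chain, and the mitoribosome translates its messages. The ribosomal RNAs are transcribed in the organelle, but every protein of the ribosome is encoded in the nucleus, made in the cytosol and imported. Part of the protein set descends from bacterial ribosomes, and part exists only in mitochondria. T cells build up mitochondria when they are activated, and mitochondrial translation is known to be needed for the function of effector T cells.

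The promoters of 3 members that rose on anti-CD40L are shown because 2 of them share a sequence element close to the annotated start. Each line gives the 120 bases just upstream of the RefSeq start, 5′ to 3′ on the gene's own strand, from RefSeq assembly GRCm38.p6. The stretches are chr9:98601680-98601799 (minus strand) for Mrps22, chr10:95501950-95502069 (minus strand) for Mrpl42 and chr3:32736756-32736875 (minus strand) for Mrpl47. Capitals mark matches on either strand to the motifs searched. The RefSeq starts of Mrpl1 and Mrps31 lie 617 and 891 bases inside their annotated gene spans, so the bases before them are not shown.
Mrps22: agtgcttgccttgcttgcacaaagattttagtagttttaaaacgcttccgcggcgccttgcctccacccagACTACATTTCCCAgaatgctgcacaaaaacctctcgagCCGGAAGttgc
Mrpl42: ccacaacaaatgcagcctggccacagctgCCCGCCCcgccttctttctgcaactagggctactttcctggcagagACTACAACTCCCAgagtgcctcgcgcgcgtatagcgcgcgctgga
Mrpl47: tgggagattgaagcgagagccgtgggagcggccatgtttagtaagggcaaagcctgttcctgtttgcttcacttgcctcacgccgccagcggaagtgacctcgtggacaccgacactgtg
Mrps22 and Mrpl42 both held the element bound by ZNF143 and THAP11 (ACTACA, any 2 bases, TCCCA), beginning 49 bases before the start in Mrps22 and 45 bases before it in Mrpl42. Mrps22 also held the ETS core CCGGAAG at 11 bases before the start, and Mrpl42 held a GC box. The stretch of Mrpl47 held none of the motifs searched. Promoter windows of 300 bases (250 before to 50 after the start) were on hand for 69 of the 78 members and for 9006 genes tested, and both strands were searched. The windows of Mrpl1 and Mrps31 are among these 69. The place of the start within the gene span was looked up only for the 5 members called, so other windows may also lie inside genes. The ETS core CCGGAAG stood in 37.7% of the 69 members, 22.1% of the genes tested and 9.93% of all 27025 windows. The YY1 letters AAGATGGCG stood in 11.6%, 3.96% and 1.64%, and the NRF1 motif (GCGCA, any base, GCGC) in 18.8%, 12.6% and 5.19%. The ZNF143 and THAP11 element stood in 7.25% of the members (Mrpl24, Mrpl34, Mrpl42, Mrpl50 and Mrps22), in 4.39% of the genes tested and in 1.69% of all windows, and it was added to the search after the sequences had been seen. The Myc-type E-box CACGTG stood in 7.25% of the members and 12.3% of the genes tested, the GC box GGGCGGG in 42% and 52.1%, and CCAAT in 39.1% and 43.1%. The ETS core and the ZNF143 and THAP11 element do not share letters in the stretches printed, and a match is a run of letters, not a bound site. The median log2 fold change on anti-CD40L was 0.12 in the 26 members with the ETS core and 0.12 in the 43 without it. For the ZNF143 and THAP11 element it was 0.11 in 5 members with it and 0.13 in 64 without, and for the NRF1 motif 0.04 in 13 with it and 0.13 in 56 without. For the YY1 letters it was 0.20 in 8 members with them and 0.10 in 61 without, and for the E-box 0.20 in 5 with it and 0.12 in 64 without. It was 0.13 with the GC box and 0.10 without, and 0.11 with CCAAT and 0.13 without.

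The libraries held 5316482 to 15565711 counts over genes, and the members took 0.386% to 0.465% of them, with 47 to 2037 counts per member and library (median 482). WT anti-CD40L replicate 3 stood apart: it was the shallowest library, had 11673 genes with a count against 14290 to 17428 in the others, and lay at 66.01 on a first principal component on which the other 8 lay between -17.87 and 14.89. Cd40lg, the gene targeted in the KO mice, was read at 142, 154 and 189 CPM in WT isotype, 109, 132 and 163 CPM in WT anti-CD40L and 145, 136 and 150 CPM in KO isotype. CPM are depth-scaled counts, here over TMM-scaled library sizes. The level of this gene therefore went against the KO label, though the sources used here do not say which exons were deleted, and reads outside them would still count. Directions that involve these libraries are those of the libraries labelled KO. Of the markers of CD4 T cells, Cd4 (412 to 495 CPM) and Cd3e (366 to 437 CPM) were high in every library. The summed level of 6 B cell markers was 25.1, 32.1 and 11.1 CPM in WT isotype, 6.81, 10.2 and 1.72 CPM in WT anti-CD40L and 13.7, 4.54 and 6.74 CPM in KO isotype. The B cell gene Fcer2a fell on anti-CD40L against WT isotype (edgeR adjusted p = 0.00176). The summed level of 5 myeloid markers was 2.87, 1.9 and 1.72 CPM in WT isotype, 0.538, 0.406 and 0 CPM in WT anti-CD40L and 4.12, 1.32 and 1.97 CPM in KO isotype, and Itgam, a myeloid integrin, fell on anti-CD40L against both other groups (edgeR adjusted p = 0.0336 and 0.0437). Itgam was the only 1 of the 5 myeloid markers that passed the filter, and its counts were low. They were 29, 14 and 8 in WT isotype, 3, 3 and 0 in WT anti-CD40L and 21, 15 and 22 in KO isotype. It made up most of the myeloid sum in WT isotype, with a mean of 1.62 CPM out of 2.16 CPM. In bulk RNA a change in the share of cells of a type and a change in RNA per cell cannot be told apart.

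In WT isotype cells the members' mean levels ran from 16 CPM for Mrpl14 to 142 CPM for Mrpl12, with a median of 46.05 CPM. Mrpl12, a stalk protein that contacts the elongation factors, stood at 137, 153 and 135 CPM in WT isotype, 143, 147 and 166 CPM in WT anti-CD40L and 152, 146 and 130 CPM in KO isotype. Its 3 groups overlapped. Scaled by transcript length, the highest members were Mrps6 (132 CPM per kb), a small-subunit protein with a bacterial counterpart, Mrpl52 (116), Mrpl12 (108), Mrpl33 (107) and Mrps21 (106). The lowest per length were Mrpl1 (6.38 CPM per kb), Mrpl57 (7.09), Mrps35 (7.11), Mrpl17 (7.59) and Mrpl47 (8.11). These lengths are medians over the GENCODE transcripts linked to the RefSeq transcript kept, and they can include long untranslated ends. This order is therefore approximate, and 77 of 78 members had a length. The members' median coefficient of variation between replicates was 7.60% in WT isotype, 10.3% in WT anti-CD40L and 6.68% in KO isotype. Over all genes tested, which were not matched to the members in level, it was 9.17%, 14.6% and 10.3%.

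The first comparison addressed what binding of CD40L by the antibody does in wild-type cells. On anti-CD40L, 5 of the 78 members rose and 0 fell: Mrpl1, Mrpl47 and Mrpl42 of the large subunit and Mrps31 and Mrps22 of the small subunit. The rises were 1.33-fold to 1.86-fold. A larger number of members lay slightly above WT isotype without passing the test. Members called made up 6.41% of the list, against 9.37% of all 11256 genes tested in either direction, 2.91% of them higher and 6.46% lower (edgeR quasi-likelihood F test, p adjusted by Benjamini-Hochberg, under 0.05). The log2 fold change was above 0 in 62 of 78 members, against 48.2% of all genes, and the members' median was 0.13 against -0.01 over all genes. A further 4334 genes, members left out, had a mean level over all 9 libraries between 21.3 and 107 CPM. Of these, 2.68% were called higher, 49.4% had a log2 fold change above 0 and the median was -0.003. At an unadjusted p under 0.05, 14 members were higher and 1, Mrpl24, was lower, against 11.9% and 14.5% of all genes.

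**Figure D1:**
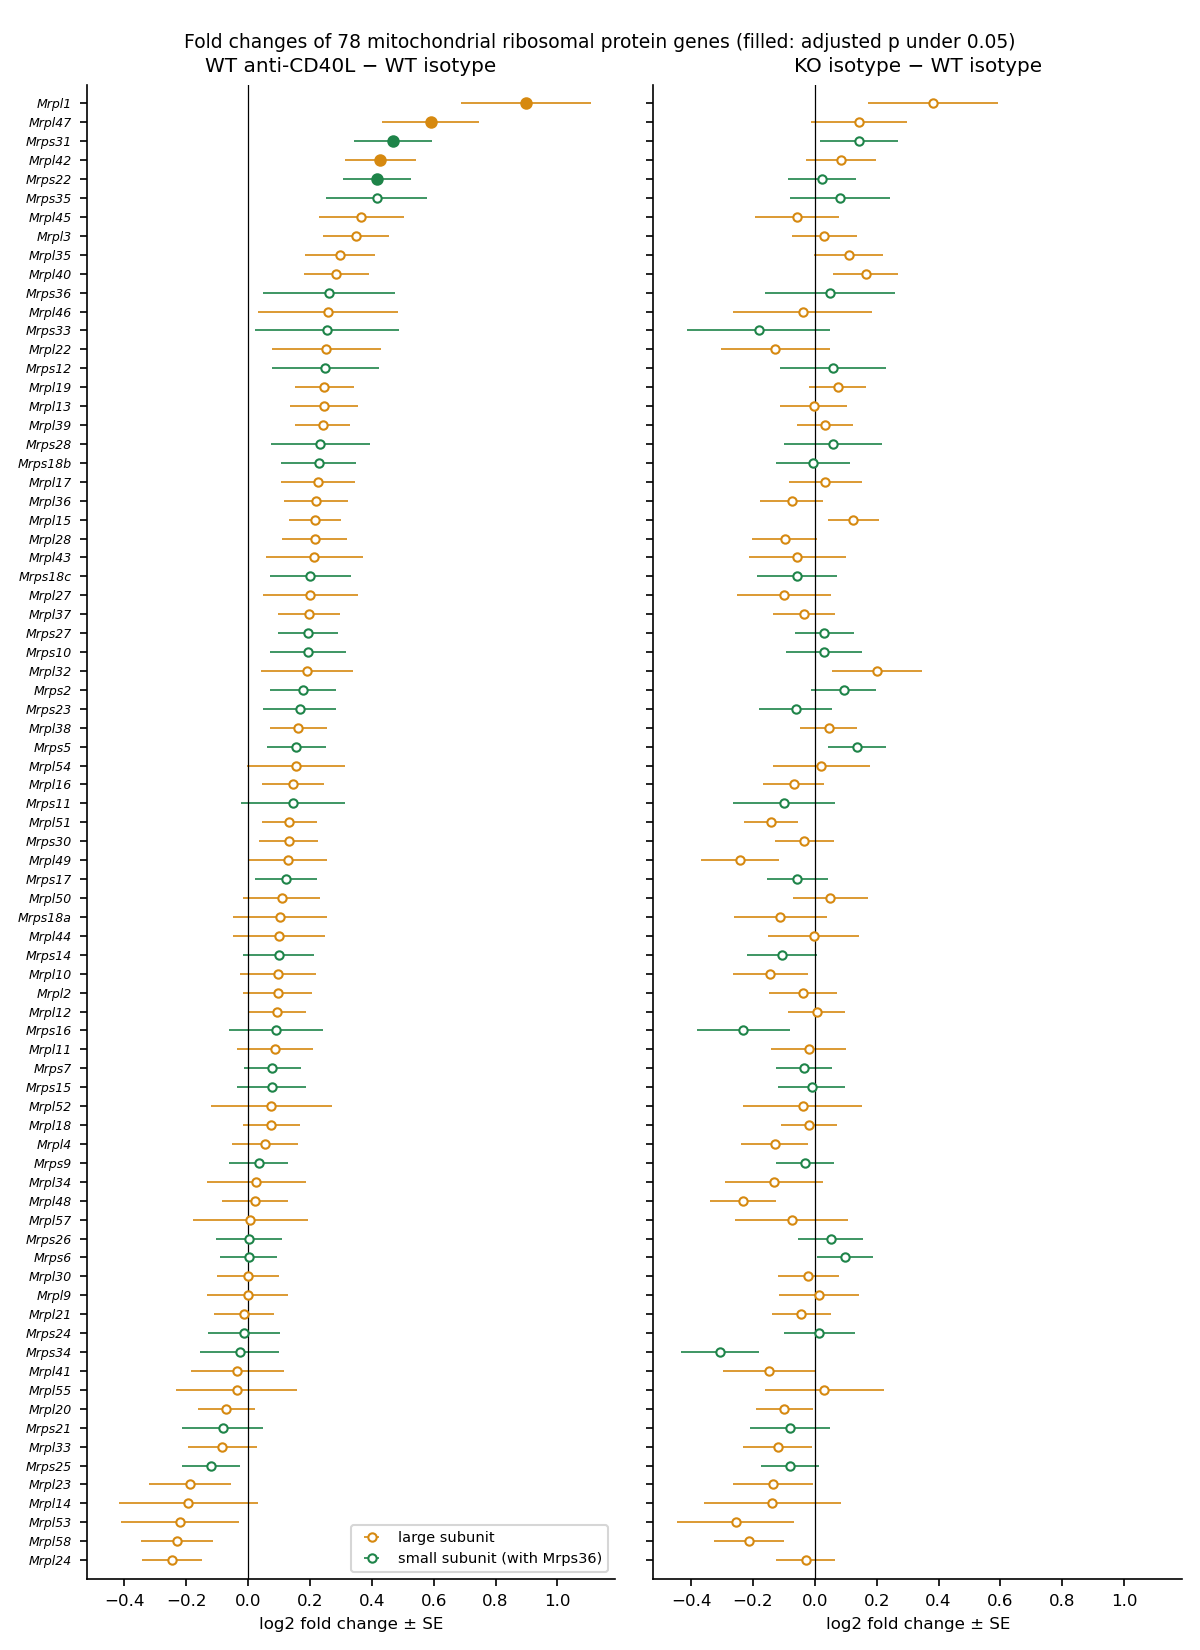
Log2 fold changes with standard errors (x axis) of the 78 members (y axis, ordered by the anti-CD40L change), for WT anti-CD40L minus WT isotype (left) and KO isotype minus WT isotype (right), with large-subunit genes in orange and small-subunit genes and Mrps36 in green. Filled points mark the 5 members called on the left, where values ran from -0.25 to 0.90. On the right 0 were called and values ran from -0.31 to 0.38.

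Mrpl1 forms the mobile L1 stalk, next to the site where spent tRNA leaves the ribosome, and lies at chromosome 5, 96209498 to 96266727 (GRCm38). It was at 22.2, 21.9 and 21.6 CPM in WT isotype, 46.2, 33 and 43.6 CPM in WT anti-CD40L and 18.7, 28.5 and 37.5 CPM in KO isotype. All 3 anti-CD40L libraries lay above the WT isotype libraries, while the KO libraries spread across both. The log2 fold change on anti-CD40L was 0.90 with an SE of 0.21 (edgeR, Benjamini-Hochberg adjusted p = 0.0185). Mrpl1 also had the lowest agreement between its RefSeq rows of all 25 members with several rows, with a second row at 0.567 of the first.

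Mrpl47, a large-subunit protein near the mouth of the exit tunnel, lies at chromosome 3, 32727497 to 32736755. It was at 26.9, 27.5 and 27.5 CPM in WT isotype, 35.5, 35.1 and 54.1 CPM in WT anti-CD40L and 31.3, 29.1 and 30.1 CPM in KO isotype. The groups did not overlap, and anti-CD40L replicate 3 was the highest library by a wide margin. Its log2 fold change was 0.59 with an SE of 0.16 (edgeR adjusted p = 0.0332), and without that replicate it was 0.38 (edgeR adjusted p = 0.0417). Mrpl42, a large-subunit protein without a bacterial counterpart, lies at chromosome 10, 95480805 to 95501949. It was at 48.7, 57.1 and 50.9 CPM in WT isotype, 76.6, 60.9 and 73.8 CPM in WT anti-CD40L and 50.5, 57.8 and 57.8 CPM in KO isotype. Every anti-CD40L library lay above every other library, and the log2 fold change was 0.43 with an SE of 0.11 (edgeR adjusted p = 0.0332).

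Mrps22, a small-subunit protein found only in mitochondria and mutated in inherited mitochondrial disease, lies at chromosome 9, 98588730 to 98601679. Its levels were 38.7, 39.9 and 35.6 CPM in WT isotype, 55.3, 45.7 and 51.4 CPM in WT anti-CD40L and 39.1, 36.3 and 40.7 CPM in KO isotype. The anti-CD40L libraries stood above all 6 isotype libraries, with a log2 fold change of 0.42 and an SE of 0.11 against WT isotype (edgeR adjusted p = 0.0332). Mrps31, a protein of the small-subunit head, lies at chromosome 8, 22410449 to 22429669. It was at 26.2, 26.1 and 27.6 CPM in WT isotype, 33.7, 36 and 41.5 CPM in WT anti-CD40L and 31.4, 30.9 and 26 CPM in KO isotype. Here too the anti-CD40L libraries were the highest, and the log2 fold change was 0.47 with an SE of 0.13 (edgeR adjusted p = 0.0364).

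These calls were sensitive to single libraries. Leaving out WT isotype replicate 1 or replicate 3 left 0 of the 5 called, and leaving out WT isotype replicate 2 or KO isotype replicate 2 left 1, although the KO library is in neither group compared and enters through the shared fit. Without anti-CD40L replicate 1 the members called were Mrpl47 and Mrpl3, and without anti-CD40L replicate 3, the library that stands apart, they were Mrpl47, Mrps22 and Mrpl35. Without that last library the log2 fold change was 0.87 for Mrpl1, 0.42 for Mrps22, 0.41 for Mrpl42 and 0.40 for Mrps31. The call of Mrpl47 was also lost with only the 2 groups fitted. None of the 5 genes overlaps another annotated gene, whereas 25 of the 78 members do, and the sources used here do not say whether counting used strand.

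**Figure D2:**
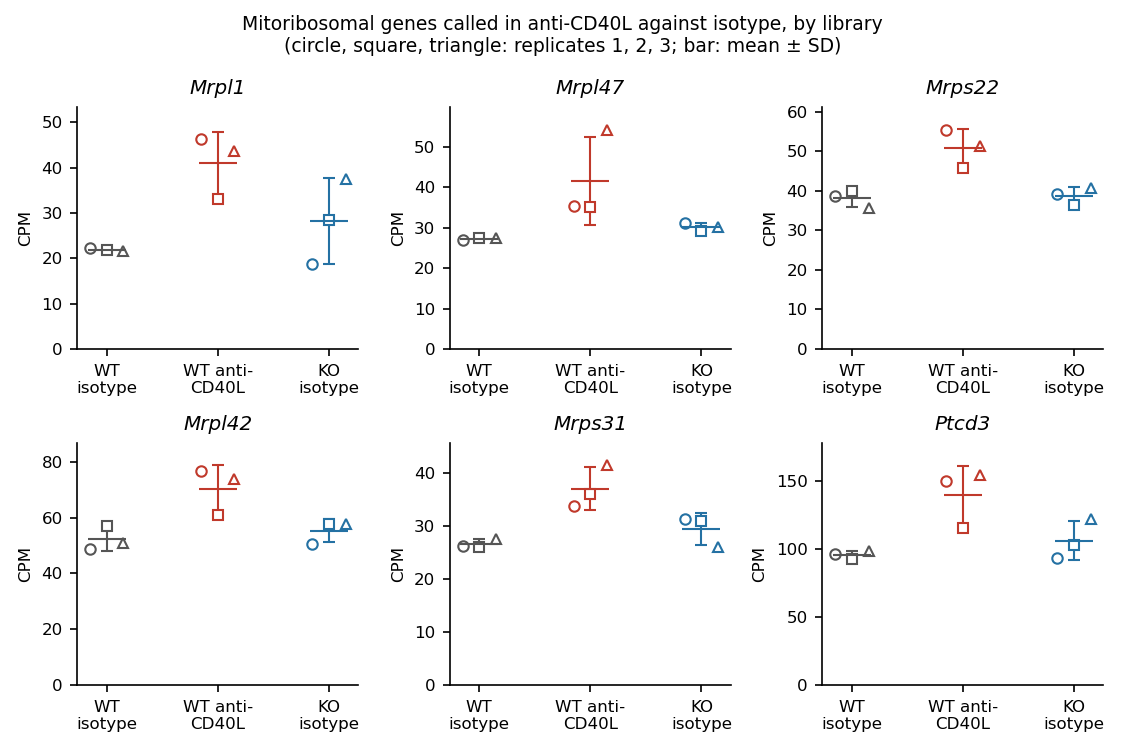
Level in CPM (y axis, from 0) of the 5 members called on anti-CD40L and of Ptcd3 in the 9 libraries by group (x axis). Circles, squares and triangles are replicates 1, 2 and 3, and bars give the mean and SD. In each panel the 3 anti-CD40L libraries lie above the 3 WT isotype libraries.

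By role, the large subunit (51 genes, counting Mrps30 and Mrps18a, whose products sit there) had 3 called and 39 with a log2 fold change above 0, with a median of 0.13. The small subunit (26 genes) had 2 called and 22 above 0, with a median of 0.15. The median was 0.10 over 46 members listed as conserved with bacteria (2 called, 4.35%). It was 0.16 over 31 listed as special to the mitochondrial ribosome (3 called, 9.68%). Over all genes tested 9.37% were called, 2.91% were called higher and 48.2% were above 0. The 49 members in none of the structural groups named next had 3 called (6.12%), 38 above 0 (77.6%) and a median of 0.13. No test was made between roles. The 8 genes of the exit tunnel and membrane face had 1 called (Mrpl47), 6 above 0 and a median of 0.23. Of this group, Mrpl45, which anchors the ribosome to the inner membrane, was at 59.9, 57.4 and 66.4 CPM in WT isotype and 70.4, 70.3 and 97.6 CPM in WT anti-CD40L. Its groups did not overlap, but the log2 fold change of 0.37 did not pass (edgeR adjusted p = 0.109). Mrpl24, of the same face of the ribosome, lay on the other side with 104, 123 and 110 CPM in WT isotype and 93.0, 87.3 and 105 CPM in WT anti-CD40L. Those groups overlapped, and its log2 fold change of -0.25 was the lowest of all members (edgeR adjusted p = 0.128). With limma-voom and quality weights Mrpl24 was called lower, at -0.28 (adjusted p = 0.0413).

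The 8 genes of the central protuberance, which contacts the small subunit and the bound tRNAs, had 0 called, 7 above 0 and a median of 0.15. The 5 genes of the stalk that recruits translation factors and of its base (a structure apart from the L1 stalk) had 0 called, 4 above 0 and a median of 0.10, and they include Mrpl12 at 0.10 (edgeR adjusted p = 0.545) and Mrpl53 at -0.22 (edgeR adjusted p = 0.495). The 8 genes of the small-subunit head had 1 called (Mrps31) and a median of 0.15, with Mrps35 at 0.42 (edgeR adjusted p = 0.125). Mrps12, the decoding-centre protein, was at 30.6, 36.4 and 24.2 CPM in WT isotype and 29.6, 35.7 and 44.3 CPM in WT anti-CD40L. Its groups overlapped, and its log2 fold change was 0.25 (edgeR adjusted p = 0.385). Mrpl3, which reaches toward the catalytic centre, was at 95.4, 102 and 104 CPM in WT isotype and 112, 119 and 153 CPM in WT anti-CD40L, groups that did not overlap (log2 fold change 0.35, edgeR adjusted p = 0.058). Mrpl58, a peptidyl-tRNA hydrolase that rescues stalled ribosomes, had a log2 fold change of -0.23 (edgeR adjusted p = 0.227).

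In all, 20 of the 78 members (25.6%) were higher in every anti-CD40L library than in every WT isotype library, against 15.4% of all genes tested, and 1 (Mrps25) was lower in every one, against 17.2% (32.6% of all genes in either direction). The libraries themselves were uneven. The members' median log2 deviation from the WT isotype mean was -0.04, 0.09 and -0.04 in the 3 WT isotype libraries, 0.06, 0.07 and 0.21 in WT anti-CD40L and 0.05, -0.02 and -0.10 in KO isotype. WT isotype replicate 2 thus lay above anti-CD40L replicates 1 and 2, so the groups overlapped in this measure, while all genes tested had a median between -0.03 and 0.002 in every library. Out of 78 members, 36 had their highest level of all 9 libraries in anti-CD40L replicate 3, 18 in replicate 1 and 7 in replicate 2. The lowest level fell in anti-CD40L replicate 3 for 6 members and in KO isotype replicate 3 for 29. Such counts were not made over all genes. Some members stood out in anti-CD40L replicate 3 alone: Mrpl46 was at 31, 27.6 and 61.1 CPM in the 3 anti-CD40L libraries, Mrps33 at 27.2, 28 and 57.1 CPM, and Mrpl43 at 54.2, 53.1 and 84.8 CPM. Mrps36, which keeps a ribosomal symbol but belongs to the 2-oxoglutarate dehydrogenase complex, was at 30.3, 30.6 and 50.1 CPM in the same libraries. Mrpl46 and Mrps11 are neighbours on chromosome 7 with 41 bases between them, and Mrps11 was at 23.4, 27.8 and 35.4 CPM there. Without anti-CD40L replicate 3 the members' median log2 fold change was 0.08, with 54 of 78 above 0, and without WT isotype replicate 2 it was 0.21, with 69 above 0. The B cell marker sum averaged 22.8 CPM in WT isotype, 6.24 CPM in WT anti-CD40L and 8.33 CPM in KO isotype, and it was highest in WT isotype replicate 2 (32.1 CPM). The part of these sums, of the myeloid sums and of the low depth of anti-CD40L replicate 3 in the members' values was not tested. The summed member level was 4030 ± 219 CPM in WT isotype, 4420 ± 273 CPM in WT anti-CD40L and 3990 ± 176 CPM in KO isotype (SD, n = 3).

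**Figure D3:**
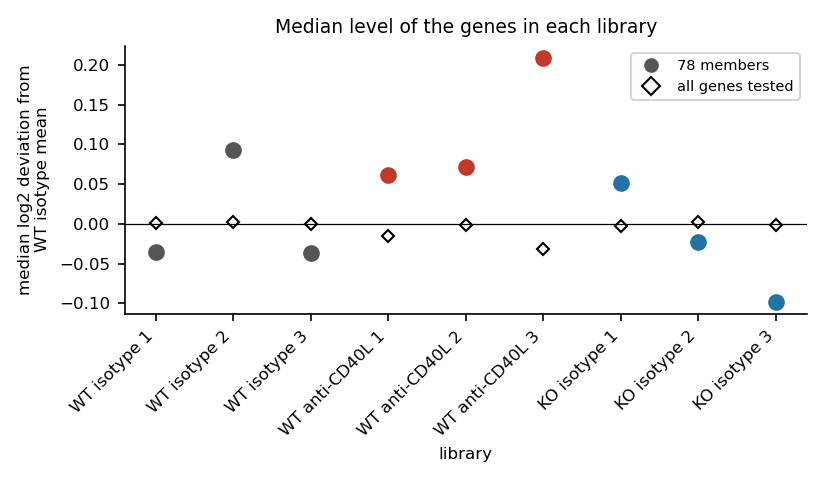
Median log2 deviation from the WT isotype mean (y axis) of the 78 members (filled circles) and of all genes tested (open diamonds) in each library (x axis). The members ran from -0.10 in KO isotype replicate 3 to 0.21 in WT anti-CD40L replicate 3, and WT isotype replicate 2 lay at 0.09, above anti-CD40L replicates 1 and 2.

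**Figure D4:**
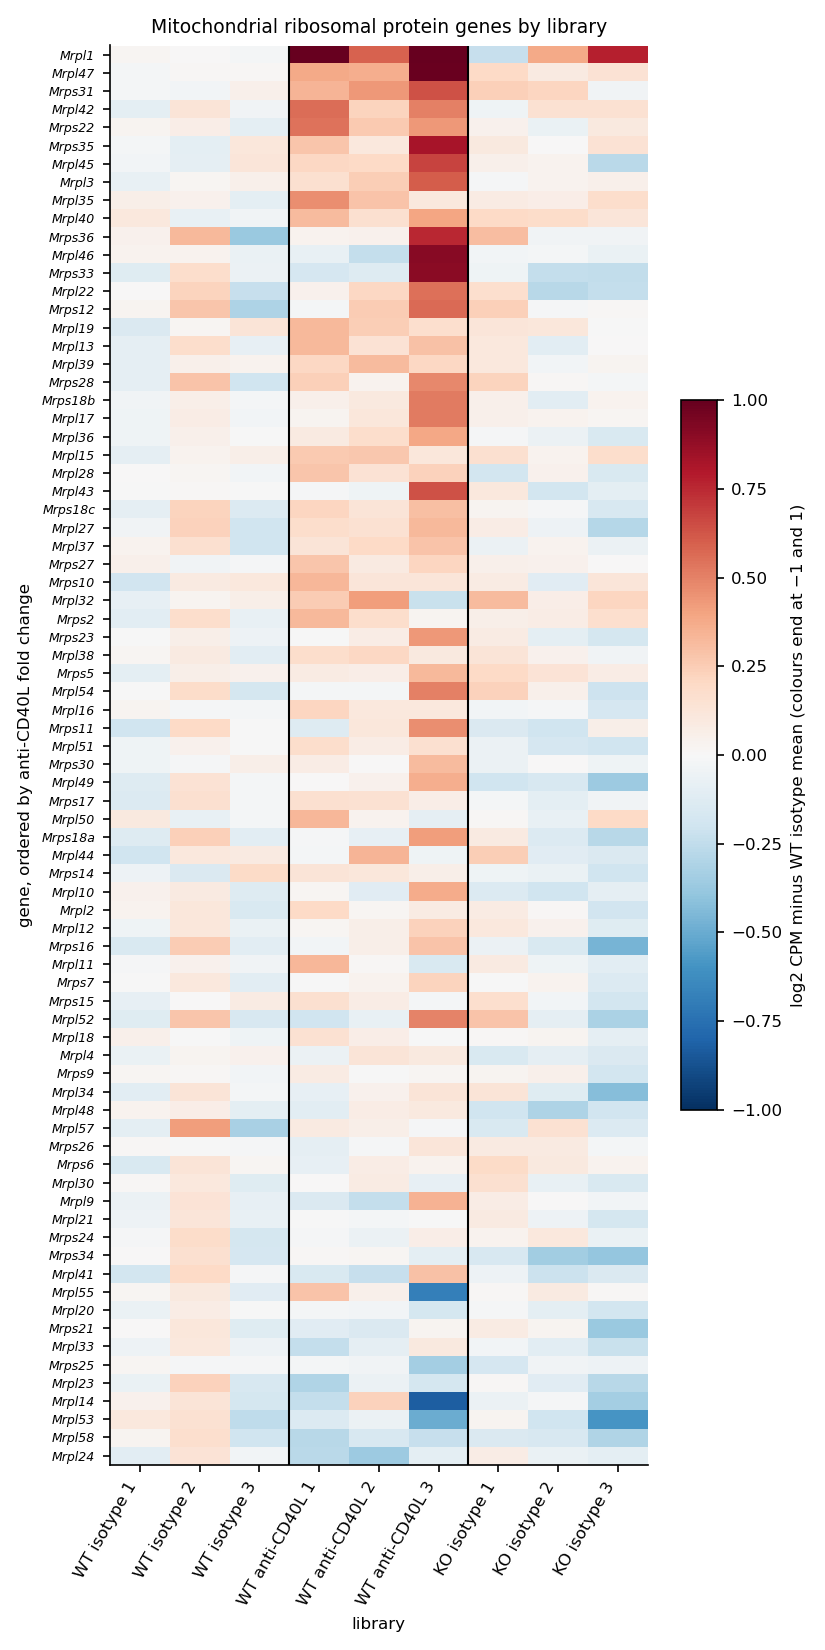
Log2 CPM minus the WT isotype mean (colour, ends at -1 and 1) of the 78 members (y axis, ordered by the anti-CD40L fold change) in the 9 libraries (x axis). The top rows are red in all 3 anti-CD40L libraries, and a second set of genes, Mrpl46 and Mrps33 among them, is dark red in anti-CD40L replicate 3 alone.

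The second comparison asked what the deletion does without the CD40L antibody. Between the libraries labelled KO and WT isotype, 0 of the 78 members were called by edgeR, and 0 of all 11256 genes (0%). At an unadjusted p under 0.05, 2 members (Mrps34 and Mrpl48) were lower and 0 were higher, against 3.3% and 2.47% of all genes (5.77% in either direction), and DESeq2 and limma-voom also called 0 members. The log2 fold change was above 0 in 30 members, against 50.6% of all genes, with a median of -0.03 against 0.002 over all genes. That median turned to 0.01 without KO isotype replicate 3 and to 0.02 without WT isotype replicate 2. Groups did not overlap for 5 members higher and 5 lower (6.41% each), against 7.61% and 7.62% of all genes (15.2% in either direction).

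Mrps34, a small-subunit protein found only in mitochondria, had the lowest value. It was at 31.1, 34.7 and 27.6 CPM in WT isotype and 27.7, 24.4 and 23.7 CPM in KO isotype, groups that overlapped slightly, with a log2 fold change of -0.31 and an SE of 0.13 (edgeR adjusted p = 0.816). Next came Mrpl53 at -0.26 and Mrpl49 at -0.24. At the other end were Mrpl1 at 0.38 with an SE of 0.21 (edgeR adjusted p = 0.885), Mrpl32, a protein matured by a mitochondrial protease before assembly, at 0.20, and Mrpl40 at 0.17. The remaining genes called on anti-CD40L had values of 0.14 (Mrpl47 and Mrps31), 0.09 (Mrpl42) and 0.02 (Mrps22) in the libraries labelled KO. Both comparisons use the same WT isotype libraries, so their values are not independent.

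A direct comparison of WT anti-CD40L with the libraries labelled KO, groups that differ in genotype and antibody together, called 1 member higher, Mrps22, and 0 lower. That is 1.28% of the members, against 6.83% of all genes tested, 1.79% higher and 5.04% lower. The log2 difference of Mrps22 was 0.39 with an SE of 0.11 (edgeR adjusted p = 0.049), and the call held under 8 of 18 alternatives. It was lost without KO isotype replicate 1 or 2, without anti-CD40L replicate 1 or 3, without any 1 of the 3 WT isotype libraries, without a filter on low counts and with only the 2 groups fitted, among others. The other 4 had log2 differences of 0.52 (Mrpl1), 0.45 (Mrpl47), 0.34 (Mrpl42) and 0.33 (Mrps31), with edgeR adjusted p-values of 0.159, 0.106, 0.0896 and 0.146. Without KO isotype replicate 3 the test also called Mrpl1. The members' median was 0.17 against -0.01 over all genes, 66 of 78 were above 0 against 48.6% of all genes, and groups did not overlap for 25 members higher and 0 lower, against 10.3% and 15.9% of all genes (26.2% in either direction). At an unadjusted p under 0.05, 17 members were higher and 1, Mrpl24, was lower, against 9.11% and 13.1% of all genes (22.2% in either direction). Beyond those called, Mrps33 had 0.44 (edgeR adjusted p = 0.29) and Mrpl45 0.42, and the lowest were Mrpl24 at -0.22, Mrps6 at -0.10 and Mrpl55 at -0.07.

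The mitoribosomal proteins whose symbols fall outside the rule were examined beside the members. Ptcd3, a pentatricopeptide protein of the small subunit, was at 96.1, 92.9 and 98.5 CPM in WT isotype, 150, 115 and 154 CPM in WT anti-CD40L and 93.3, 103 and 122 CPM in KO isotype. It was higher in every anti-CD40L library than in every WT isotype library and rose by a log2 fold change of 0.54 with an SE of 0.12 (edgeR adjusted p = 0.0144), a call lost without anti-CD40L replicate 1 or WT isotype replicate 2. Dap3, a GTP-binding small-subunit protein, was at 78.8, 76.4 and 80.8 CPM in WT isotype, 86.9, 88.2 and 88.1 CPM in WT anti-CD40L and 76.5, 69.1 and 64.5 CPM in KO isotype. Its anti-CD40L libraries were the highest of the 9. Against WT isotype its log2 fold change was 0.16 (edgeR adjusted p = 0.268), and against the libraries labelled KO it was called at 0.33 (edgeR adjusted p = 0.0403). That call was lost without either of KO isotype replicates 2 and 3, either of anti-CD40L replicates 1 and 2, or any 1 of the WT isotype libraries, and also without a filter on low counts and with only the 2 groups fitted. Gadd45gip1, Chchd1 and Aurkaip1 had log2 fold changes of 0.04, 0.06 and -0.02 on anti-CD40L.

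Of 27 mitoribosome assembly factors, 1 rose on anti-CD40L and 0 fell (3.7%, against 9.37% of all genes called and 2.91% called higher), with a median of 0.07. This was Fastkd2, an RNA-binding protein of large-subunit assembly, at 43.1, 44.4 and 46.8 CPM in WT isotype, 71.6, 53.3 and 72.8 CPM in WT anti-CD40L and 46.1, 49.7 and 62.7 CPM in KO isotype. Its log2 fold change was 0.56 with an SE of 0.14 (edgeR adjusted p = 0.028), and the call was lost without anti-CD40L replicate 1 or 3 or any 1 WT isotype library. Of 17 translation factors tested, 1 rose and 0 fell (5.88%, beside the same 9.37% and 2.91%), with a median of 0.09. Tufm, the elongation factor that delivers tRNA, was at 157, 165 and 161 CPM in WT isotype, 185, 184 and 227 CPM in WT anti-CD40L and 164, 163 and 167 CPM in KO isotype. The anti-CD40L libraries lay above the other 6, and the log2 fold change was 0.30 with an SE of 0.09 (edgeR adjusted p = 0.0488). This call held under 9 of 18 alternatives: it was lost without KO isotype replicate 2, anti-CD40L replicate 1 or 3, or any 1 WT isotype library, and also with limma-voom and with only the 2 groups fitted, among others. Gfm1, the translocation factor, had 0.30 (edgeR adjusted p = 0.054) and was called against the libraries labelled KO at 0.35 (edgeR adjusted p = 0.0296), a call lost without any 1 of those 3 libraries, without anti-CD40L replicate 1 or 3, and with only the 2 groups fitted.

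Of 17 mitochondrial aminoacyl-tRNA synthetases, which charge tRNA with amino acids, 0 rose and 1 fell (5.88%, against 6.46% of all genes called lower), with a median of 0.06. Lars2, the leucine enzyme, was at 747, 954 and 1250 CPM in WT isotype, 468, 628 and 445 CPM in WT anti-CD40L and 509, 560 and 647 CPM in KO isotype. On anti-CD40L it fell by 0.93 on the log2 scale with an SE of 0.17 (edgeR adjusted p = 0.00457). Both other groups lay below WT isotype, and the log2 fold change in the libraries labelled KO was -0.78 (edgeR adjusted p = 0.366). Between anti-CD40L and KO isotype it was -0.16 (edgeR adjusted p = 0.636). Counts of the ribosomal RNA row NR_046233 took 1.18%, 2.64% and 2.37% of the WT isotype libraries, 0.766%, 0.821% and 1.41% of WT anti-CD40L and 1.21%, 1.14% and 1.15% of KO isotype, and the part of carried-over ribosomal RNA in the Lars2 values was not tested. Of 9 genes of mitochondrial genome replication and transcription, 0 were called, against 9.37% of all genes. Among them Tfam, which packages the mitochondrial genome, had 0.25 (edgeR adjusted p = 0.101). Of 8 transcription regulators tested, 1 rose and 0 fell (12.5%, against 9.37% of all genes called and 2.91% called higher). This was Myc, at 494, 497 and 530 CPM in WT isotype, 673, 593 and 738 CPM in WT anti-CD40L and 637, 630 and 655 CPM in KO isotype. Both other groups lay above WT isotype, with a log2 fold change of 0.40 and an SE of 0.09 on anti-CD40L (edgeR adjusted p = 0.0117, lost without WT isotype replicate 1 or 2) and 0.34 in the libraries labelled KO (edgeR adjusted p = 0.425).

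The 77 cytosolic ribosomal proteins, which serve the other ribosome of the cell, mostly lay on the opposite side of 0 for anti-CD40L against WT isotype. On anti-CD40L 1 of them rose (Rps27a) and 3 fell (Rps27, Rps21 and Rps29), or 5.19% against 9.37% of all genes (3.9% lower against 6.46%). Of the list, 13 of 77 were above 0, and the median was -0.13, against 62 of 78 and 0.13 for the mitochondrial set. In the libraries labelled KO the cytosolic median was -0.10 with 8 of 77 above 0, and the mitochondrial median -0.03 with 30 of 78 above 0. The cytosolic list was thus below WT isotype in both other groups. For anti-CD40L against KO isotype the cytosolic median was -0.03 with 32 of 77 above 0, and the mitochondrial median 0.17 with 66 of 78 above 0. No test was made of the difference between the lists.

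**Figure D5:**
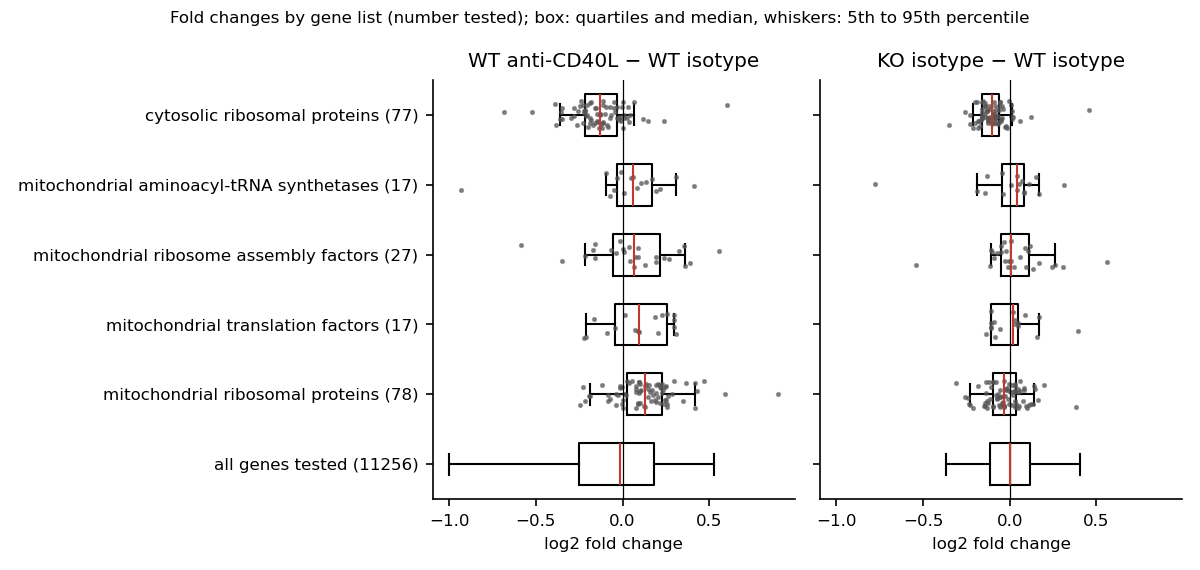
Log2 fold changes (x axis) of 5 gene lists and of all genes tested (y axis, number tested in brackets), for WT anti-CD40L minus WT isotype (left) and KO isotype minus WT isotype (right). Boxes give quartiles and median, whiskers the 5th to 95th percentile and points single genes; on the left the medians were 0.13 for mitochondrial and -0.13 for cytosolic ribosomal proteins.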

How the data were processed

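Per the labels' protocols, cells were sorted by flow cytometry, RNA was isolated on silica columns with DNase treatment, and libraries were made with a KAPA mRNA HyperPrep kit. The authors deposited 1 table of unnormalized expected counts with 42361 rows, each a RefSeq transcript. All values are multiples of 0.5, and they were rounded to whole numbers before testing. The submitters' processing notes name CASAVA 1.8.2, HISAT2 2.1.0 and build mm10. How reads were counted, with or without strand, and what was done with multiply aligned reads, is not stated in these sources, so overlapping genes and pseudogene copies are uncertain. RefSeq GRCm38.p6 named 42198 rows and GENCODE vM21 named 70, while 93 kept their identifier. The row of the highest total stood for each of 25160 genes, and for Mrpl48 and Mrps16 this row was a non-coding RefSeq transcript.

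Genes were filtered with filterByExpr, scaled by TMM and tested with edgeR 4.0.16 (R 4.3.3; quasi-likelihood, robust, all 9 libraries, 1 term per group), with Benjamini-Hochberg adjustment over 11256 genes and a threshold of 0.05. SE is the log2 fold change divided by the square root of F. CPM use TMM-scaled sizes. The test was tried on simulated data first. Alternatives were other scalings, DESeq2 1.42.0, limma 3.58.1 (voom, with and without quality weights), no filter, only the 2 groups compared, another RefSeq row, a replicate block and leaving out each library. Named genes were the members called, the 3 uncalled members farthest out in each direction, the 5 highest and lowest members per length, a few preset genes and up to 3 called genes per direction of each companion list. Mrpl14, Mrpl34, Mrpl35, Mrpl43, Mrpl46, Mrpl48, Mrpl50, Mrps11, Mrps25, Mrps36, Tfam, Gadd45gip1, Chchd1, Aurkaip1, Fcer2a, Itgam, Rps27a, Rps27, Rps21 and Rps29 were named after their values had been seen. The members and gene lists were chosen with earlier results of these data known. Mitochondrially encoded genes and Mtrfr were not analysed here.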

Additional observations from a re-analysis of the deposited data

How the results depend on the processing

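The members' median log2 fold change kept its sign under all 18 alternatives on anti-CD40L against WT isotype (0.08 to 0.21 on leaving out 1 library) and against KO isotype (0.14 to 0.21), but not in KO isotype against WT isotype (-0.07 to 0.02). With 3 libraries a group, calls depended on single libraries. On leaving out 1 library, members called numbered 0 to 5 for anti-CD40L against WT isotype and 0 to 2 against KO isotype. The like ranges were 486 to 1342 and 346 to 1022 over all genes, and 0 to 2 for KO isotype against WT isotype. Translation factors called ranged from 0 to 2 and 0 to 1, synthetases from 1 to 2 and assembly factors from 0 to 1. The cause was not tested.

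For anti-CD40L against WT isotype, 8 members were called by limma-voom with quality weights (7 higher and 1, Mrpl24, lower), while all genes called numbered 1592 with DESeq2 and 1698 without a filter, and DESeq2 called 2 translation factors. For KO isotype against WT isotype, all genes called numbered 42 with DESeq2, 32 with quality weights, 102 without a filter and 3 with only the 2 groups fitted, and DESeq2 called 1 synthetase. For anti-CD40L against KO isotype, members called numbered 3 with DESeq2, 2 with quality weights, 4 without a filter (Mrpl1, Mrpl3, Mrpl45 and Mrpl47, with Mrps22 lost) and 0 with only the 2 groups. All genes called were then 1181, 1464, 1305 and 481, and DESeq2 called 2 translation factors. Of 9 same-number pairs of libraries from different groups, 1 correlated above 0.1 (r from -0.18 to 0.19). Pairs of unlike number ran from -0.14 to 0.22. Between WT anti-CD40L and WT isotype the same-number values were 0.19, 0.09 and 0.06, and the unlike ones ran from -0.14 to 0.03. With 3 libraries a group these values cannot tell whether replicate numbers pair the samples. A replicate block gave 2 members called (Mrpl1 and Mrpl47) for anti-CD40L against WT isotype and 0 against KO isotype, and under it Tufm was no longer called against WT isotype, nor Dap3 against KO isotype.

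Signs turned for uncalled genes near 0. In KO isotype against WT isotype, Mrpl12 became -0.042 and -0.021 without KO isotype replicate 1 or 2, 0 without anti-CD40L replicate 1, and -0.017 and -0.034 without WT isotype replicate 1 or 3. Mrps12 became -0.017 without KO isotype replicate 1 and -0.082 without WT isotype replicate 3, and Mrpl45 became 0.042 without KO isotype replicate 3. In anti-CD40L against KO isotype, Mrpl55 became 0.047 with quality weights and 0.148 without anti-CD40L replicate 3. Mrpl58 became 0.023 with the lowest-numbered RefSeq row and 0.019, 0.014 and 0.017 without KO isotype replicate 1, KO isotype replicate 2 or anti-CD40L replicate 1. Cd40lg became 0.04 without anti-CD40L replicate 1. On leaving out 1 library the ranges were -0.042 to 0.072 (Mrpl12), -0.082 to 0.208 (Mrps12) and -0.117 to 0.042 (Mrpl45) in the first of these comparisons, and -0.268 to 0.148 (Mrpl55), -0.066 to 0.019 (Mrpl58) and -0.243 to 0.04 (Cd40lg) in the second.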
